A study of Mus musculus with 9 samples.

Results

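The 41 genes described here carry out mitosis. They were taken by gene symbol from the 18875 genes of the deposited expression table, and all 41 were found. By role they were 9 cyclins, mitotic entry kinases and their regulators, 8 genes of the spindle checkpoint and of anaphase control, 4 subunits of the chromosomal passenger complex, 7 kinetochore and centromere genes, 6 spindle motors and microtubule proteins, 5 genes of the central spindle and cytokinesis, and Top2a with Mki67. Expression was measured by sequencing of poly(A) RNA from the lungs of wild-type BALB/c mice, in 9 libraries of 3 groups with 3 libraries each. PM2.5, fine airborne particulate matter, was instilled through the nose at 10 mg/kg. One group received it 1 time (short-term PM2.5), and another 6 times, 3 days apart (long-term PM2.5). The remaining group was exposed to PBS on the long-term scheme. PBS on the short-term scheme was not analysed here, and the short-term libraries are compared with PBS given on another schedule. How long after the last instillation the lungs were taken is not stated in the labels. The labels do not state whether a group's 3 libraries are 3 animals, and p-values below measure only the spread between these samples, which may be technical.

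A cell enters mitosis when cyclins A and B activate Cdk1, and Polo and Aurora kinases then build the spindle. The spindle checkpoint holds the cell until each kinetochore is attached, after which the anaphase-promoting complex destroys securin and cyclin B and the chromosomes part. Most of these genes are silent in resting cells and are transcribed as cells pass from S phase into G2 and mitosis. The adult lung divides little, and macrophages, epithelial progenitors and other cells that re-enter the cycle express them. Their transcription is controlled through the CHR (cell cycle genes homology region), a short promoter element. The DREAM complex binds it in resting cells and represses the gene, and the B-Myb and MuvB complex with Foxm1 activates through the same element later in the cycle. CCAAT boxes bound by NF-Y often lie upstream of it.

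The promoters of 6 genes are printed to show where these motifs lie in mitotic genes with much transcript. They are the 6 genes of highest mean TPM over the 9 libraries whose promoter held a CHR match anywhere in the window. TPM is a transcript's share of its library, scaled for transcript length. Pttg1, which is as abundant but held no match, is therefore not among them. Its listed start lies inside the annotated gene, so the region before the gene's 5′ end was not searched. Sequences are from RefSeq on GRCm38.p6, 5′ to 3′ on the gene's own strand, from position -250 to position 30 relative to the first listed transcription start. Capitals mark the motifs searched on both strands, which were TTTGAA or TTTAAA for the CHR and CCAAT for the NF-Y box. TTTAAA reads the same on both strands and was counted once. The windows are chr2:164769679-164769958, plus strand for Ube2c, chr5:30666636-30666915, plus strand for Cenpa, chr4:118437314-118437593, minus strand for Cdc20, chr11:117848987-117849266, plus strand for Birc5, chr9:70421525-70421804, minus strand for Ccnb2 and chr11:99024160-99024439, minus strand for Top2a.
Ube2c: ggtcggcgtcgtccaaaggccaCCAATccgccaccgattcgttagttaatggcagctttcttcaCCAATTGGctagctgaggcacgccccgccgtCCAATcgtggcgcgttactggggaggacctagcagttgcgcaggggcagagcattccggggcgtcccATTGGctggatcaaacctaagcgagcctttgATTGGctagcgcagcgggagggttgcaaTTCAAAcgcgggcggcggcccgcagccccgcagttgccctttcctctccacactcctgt
Cenpa: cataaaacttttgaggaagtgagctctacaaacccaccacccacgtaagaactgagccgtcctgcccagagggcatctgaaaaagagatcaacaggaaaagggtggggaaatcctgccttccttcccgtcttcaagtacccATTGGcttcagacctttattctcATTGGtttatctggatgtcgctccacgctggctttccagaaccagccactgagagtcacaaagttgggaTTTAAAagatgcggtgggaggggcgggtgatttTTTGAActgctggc
Cdc20: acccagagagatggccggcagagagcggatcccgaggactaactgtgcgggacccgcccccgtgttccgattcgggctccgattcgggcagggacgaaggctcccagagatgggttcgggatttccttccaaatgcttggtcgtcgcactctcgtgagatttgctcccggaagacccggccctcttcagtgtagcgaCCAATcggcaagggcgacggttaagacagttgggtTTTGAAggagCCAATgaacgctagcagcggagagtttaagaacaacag
Birc5: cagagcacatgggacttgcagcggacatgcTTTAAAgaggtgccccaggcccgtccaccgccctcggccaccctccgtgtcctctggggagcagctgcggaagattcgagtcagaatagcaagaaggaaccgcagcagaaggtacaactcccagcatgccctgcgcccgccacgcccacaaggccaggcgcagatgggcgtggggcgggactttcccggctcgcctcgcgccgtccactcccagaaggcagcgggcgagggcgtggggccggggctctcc
Ccnb2: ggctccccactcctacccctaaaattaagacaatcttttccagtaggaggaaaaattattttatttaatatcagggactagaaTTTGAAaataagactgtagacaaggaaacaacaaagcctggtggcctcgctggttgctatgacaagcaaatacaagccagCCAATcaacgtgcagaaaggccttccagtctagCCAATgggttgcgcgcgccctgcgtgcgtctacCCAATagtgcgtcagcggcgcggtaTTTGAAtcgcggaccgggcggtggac
Top2a: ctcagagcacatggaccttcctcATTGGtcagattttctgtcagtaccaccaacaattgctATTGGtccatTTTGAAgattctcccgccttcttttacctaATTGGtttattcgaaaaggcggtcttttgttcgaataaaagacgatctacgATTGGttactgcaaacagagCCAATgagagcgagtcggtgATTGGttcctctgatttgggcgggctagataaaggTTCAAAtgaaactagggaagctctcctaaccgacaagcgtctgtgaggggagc

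In Ube2c, whose product hands ubiquitin to substrates of the anaphase-promoting complex, 1 CHR match began at -29, with CCAAT matches at -57 and -88. Cdc20, the activator of that complex, had its CHR match at -18, between CCAAT matches at -53 and -8. Ccnb2, a B-type cyclin, had CHR matches at 5 and -167, and its CCAAT matches began at -87, -54 and -21. The CHR match of Top2a nearest to the start began at -23. Birc5 (survivin) differed from these, since its single match was a TTTAAA at -220 and no CCAAT was found in its window.

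Promoters were listed for 33 of the 41 genes. The 8 others were Ccna2, Cdc25c, Foxm1, Aurkb, Incenp, Spc24, Tpx2 and Kif20a. A CHR match lay between -100 and 30 in 23 of the 33 (69.7%), against 8.12% of the 14874 genes of the table with a listed promoter. CCAAT was present between -250 and 30 in 25 of them (75.8%), against 37.7% of the same genes. Both were found together in 21 of the 33 (63.6%), against 3.40%. In 21 genes a CHR match began within 30 bases of the start. Pttg1, Mad2l1, Nusap1 and Nuf2 had neither motif in the window. The windows of Pttg1 (chr11:43425952-43426231) and Kif2c (chr4:117178743-117179022), both on the minus strand, lay inside the annotated genes. The 5′ ends of these genes are at 43427463 and 117182624, and the regions before them were not searched. All matches are of letters and not sites shown to be bound.

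**Figure D1:**
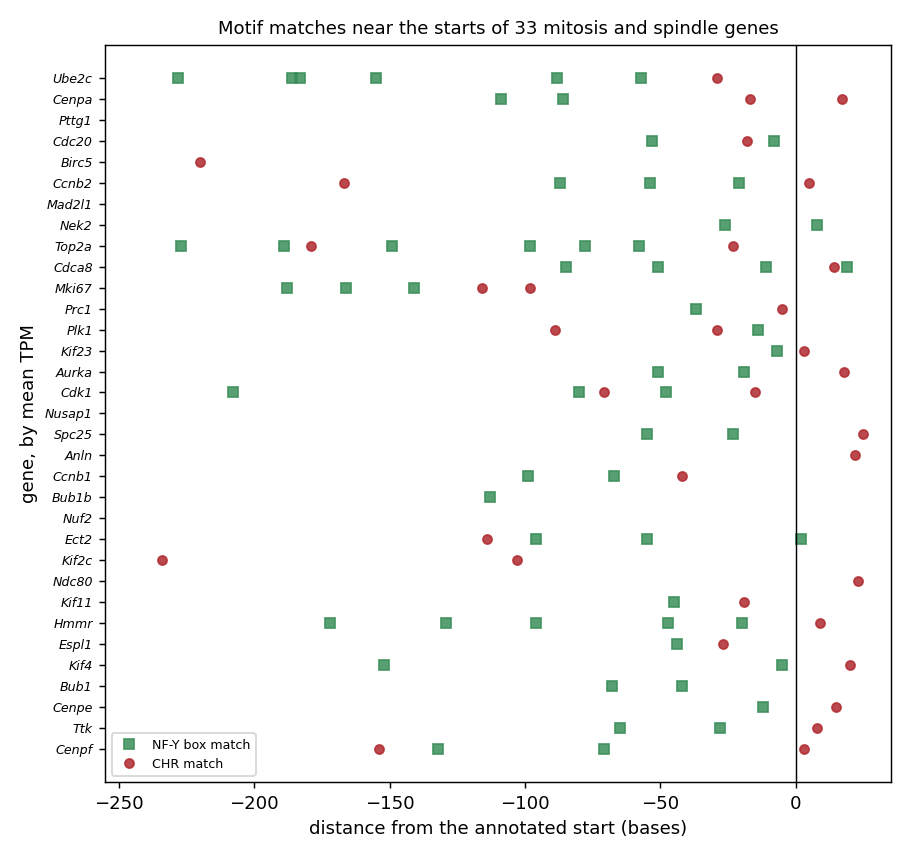
Positions of CHR matches (circles) and CCAAT matches (squares) relative to the annotated start, in bases, for the 33 genes with a listed promoter, ordered by mean TPM from the top. The CHR matches gather around the start, within 30 bases of it in 21 genes, and the CCAAT matches lie mostly upstream of them.

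The libraries had the profile of lung, with Sftpc, the surfactant protein C gene of alveolar type 2 cells, at 35226 to 35731 TPM with PBS. Within groups, Spearman correlations between libraries over the 13991 tested genes were 0.960 to 0.993. The short-term libraries stood apart in transcript length. Relative to PBS, the median of the longest 10% of tested genes minus that of the shortest 10% was a log2 difference of -1.68, -0.81 and -1.03 in short-term replicates 1, 2 and 3, against -0.21 to -0.13 in the long-term libraries. They also had fewer genes at 1 TPM or more, 12560 to 13414 against 13534 to 13930 in the other 6. Values compared with the short-term libraries are therefore given as deposited and again after removing, library by library, the trends in transcript length and GC content seen over all tested genes (the length and GC correction).

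Summed over the 41 genes, mitotic transcripts were 124, 139 and 127 TPM in PBS replicates 1, 2 and 3. They summed to 152, 197 and 177 TPM in the short-term libraries and to 490, 344 and 313 TPM in the long-term libraries. The long-term sums were all above the other 6, and the short-term sums were all above the PBS sums by a smaller margin. The group means were 130.3 ± 8.08 TPM with PBS, 175.3 ± 22.5 TPM after 1 instillation and 382 ± 94.4 TPM after 6 (SD, n = 3), which puts the long-term mean at 2.93 times and the short-term mean at 1.35 times PBS. Long-term replicate 1 was 1.49 times the mean of the other long-term libraries. Under median-ratio scaling and quantile normalization the long-term sums also stayed above all short-term sums, and those above all PBS sums. In bulk tissue, more cells in mitosis and more of these transcripts per cell cannot be told apart.

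**Figure D2:**
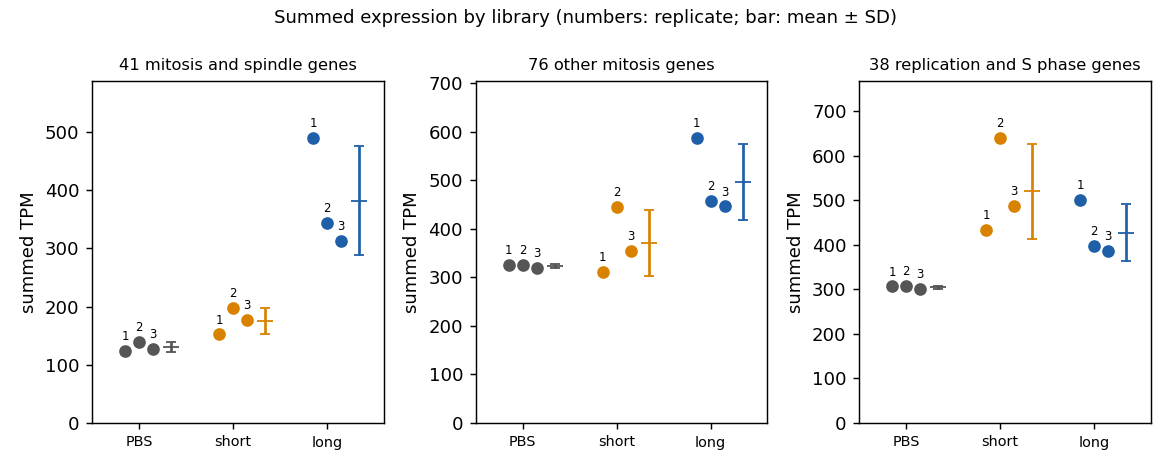
Summed TPM in each library for the 41 mitosis and spindle genes, 76 other mitosis genes and 38 genes of DNA replication and S phase. Numbers are replicates, and bars are the mean ± SD of 3 libraries. Both mitosis means were highest after 6 instillations and the S phase mean after 1, where long-term replicate 1 lay above short-term replicates 1 and 3.

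After 6 instillations every one of the 41 genes lay above PBS without overlap between the libraries of the groups. Of all tested genes 25.9% did so. Of the 41, 39 reached 1 TPM in 3 libraries or more, the filter set for testing in limma, and all 39 rose. Among all tested genes 9.51% rose and 1.72% fell. Cenpe, Cenpf and Ttk passed the filter only through the long-term libraries, and the 36 genes that passed without that help all rose as well. The median log2 change on log2(TPM + 1) was 1.27 over the 39 genes and 0.03 over all tested genes. As a ratio of mean TPM over all 41 genes, the long-term group was 1.52 to 6.37 times PBS with a median of 3.38, and the ratio was at least 3 in 27 genes. The low genes Bub1 and Cdc25c, which missed the filter, were fitted only without it, where 37 of the 41 rose against 7.99% of 18475 genes. Bub1, Mad2l1, Ndc80 and Foxm1 did not pass there. After the length and GC correction 38 of the 39 were higher and none lower, against 13.1% and 12.9% of all tested genes, and the median was 1.19 against -0.07. With PBS replicate 1 left out, 26 of the 39 kept their call and Mad2l1, Ttk, Espl1, Incenp, Cenpa, Nuf2, Ndc80, Nusap1, Kif11, Kif4, Hmmr, Anln and Foxm1 lost it, and with any other library left out no further gene did.

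**Figure D3:**
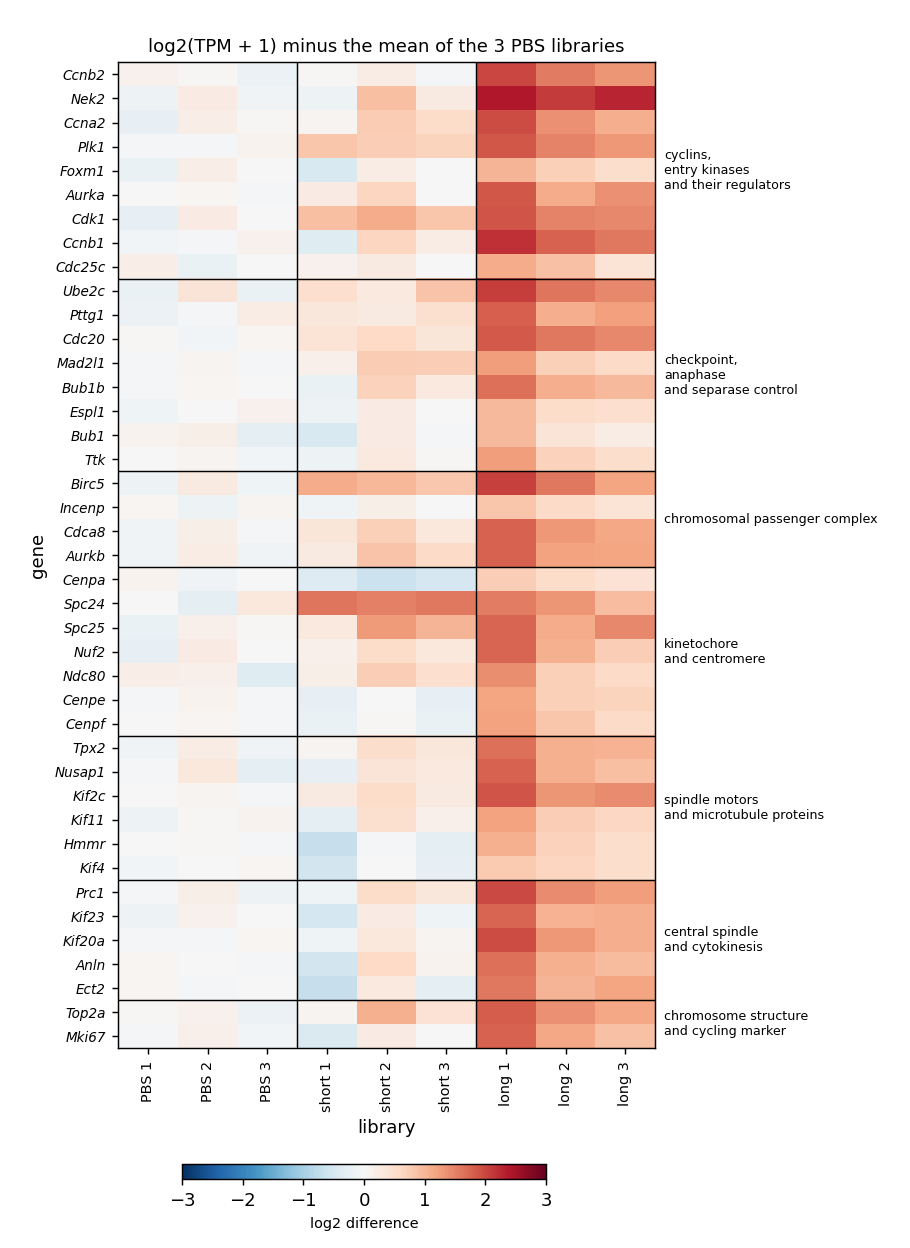
Heat map of the 41 genes (rows, grouped by role) in the 9 libraries (columns), as log2(TPM + 1) minus the mean of the 3 PBS libraries. The long-term columns are red in every row and deepest in replicate 1, and the short-term columns are mixed, with Spc24, Cdk1, Birc5 and Plk1 red in all 3 and Cenpa blue.

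Among the cyclins and entry kinases, all 8 tested genes rose after 6 instillations, against 9.51% of all tested genes. Their median log2 change was 1.58. Nek2, a centrosome kinase that parts the centrosomes before mitosis, changed most of the 41 (chr1:191821449-191833049, plus strand). It stood at 1.98, 2.96 and 2.10 TPM with PBS, 2.01, 5.23 and 2.99 TPM after 1 instillation and 16.6, 13.1 and 15.1 TPM after 6. All 3 long-term libraries were above 13 TPM, and no other library reached 6 (log2 change 2.26 ± 0.25 (SE), adjusted p = 0.000316). Ccnb1, the main mitotic cyclin (chr13:100778739-100786486, minus strand), was at 0.900, 0.940 and 1.22 TPM with PBS, 0.570, 2.17 and 1.34 TPM after 1 instillation and 8.18, 5.92 and 5.08 TPM after 6. Its long-term libraries lay at more than 4 times the highest PBS value (log2 change 1.85 ± 0.25 (SE), adjusted p = 0.000976). Ccnb2 stood at 4.91, 4.50 and 3.80 TPM with PBS, 4.55, 5.33 and 4.26 TPM after 1 instillation and 20.5, 14.8 and 12.4 TPM after 6. Here the short-term and PBS values overlapped, and the long-term libraries lay above both (log2 change 1.62 ± 0.19 (SE), adjusted p = 0.000494). Reads of Ccnb1 and Ccnb2 may be shared with the annotated pseudogenes Ccnb1-ps and Ccnb2-ps.

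The other cyclins and kinases rose by smaller steps on log2(TPM + 1). As ratios of mean TPM, Cdk1 (4.70), Plk1 (3.82) and Aurka (3.66) rose more than Ccnb2 (3.62). By that measure Ccna2 (3.56) and Foxm1 (1.88) rose less than Ccnb2. Cdk1, the catalytic partner of these cyclins, went from 1.24 ± 0.370 TPM (SD, n = 3) to 5.85 ± 1.24 TPM (SD, n = 3), with a log2 change of 1.61 ± 0.18 (SE). Plk1, the Polo kinase, went from 2.31 ± 0.211 TPM (SD, n = 3) to 8.80 ± 1.97 TPM (SD, n = 3) (log2 change 1.55 ± 0.17 (SE)), and Aurka, the spindle pole kinase, from 2.08 ± 0.115 TPM (SD, n = 3) to 7.61 ± 2.28 TPM (SD, n = 3). Ccna2, the cyclin of S phase and G2, rose by 1.47 on the log2 scale. Foxm1, the transcription factor of this program, had the largest adjusted p of the 39, with values of 3.17, 4.48 and 3.83 TPM with PBS and 8.68, 6.92 and 5.94 TPM after 6 instillations (log2 change 0.76 ± 0.21 (SE), adjusted p = 0.0429). The phosphatase gene Cdc25c, which removes the inhibitory phosphates of Cdk1, stayed below 2 TPM in every library, at 0.510, 0.140 and 0.290 TPM with PBS and 1.82, 1.41 and 0.720 TPM after 6 instillations.

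All 7 tested genes of the checkpoint and of anaphase control rose, with a median of 1.24, against 9.51% of all tested genes. Ttk among them passed the filter only through the long-term libraries. Ube2c had the highest mean TPM of the 41 genes over all 9 libraries, although Cenpa was higher in the PBS mean. Ube2c (chr2:164769929-164772902, plus strand) was at 11.6, 17.9 and 11.6 TPM with PBS, 19.3, 16.6 and 24.9 TPM after 1 instillation and 59.6, 42.9 and 38.0 TPM after 6. The long-term values lay above all others, and the PBS and short-term values overlapped (log2 change 1.70 ± 0.22 (SE), adjusted p = 0.00095). Cdc20, the activator whose promoter is printed above, was at 7.58, 6.87 and 7.63 TPM with PBS, 10.1, 11.7 and 9.81 TPM after 1 instillation and 28.9, 24.1 and 21.6 TPM after 6. The 3 groups did not overlap at all, and Cdc20 had the smallest adjusted p of the 41 (log2 change 1.62 ± 0.15 (SE), adjusted p = 0.000124). Pttg1, securin, which holds separase inactive until anaphase, was at 7.61, 8.37 and 10.4 TPM with PBS, 11.3, 10.7 and 12.6 TPM after 1 instillation and 32.7, 19.6 and 21.8 TPM after 6 (log2 change 1.37 ± 0.20 (SE), adjusted p = 0.0015). It was again highest in every long-term library.

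Separase itself, Espl1, was low, at 1.04 ± 0.181 TPM (SD, n = 3) with PBS and 2.30 ± 0.617 TPM (SD, n = 3) after 6 instillations (log2 change 0.68 ± 0.17 (SE)). The checkpoint genes differed in level. Mad2l1, a checkpoint protein that binds Cdc20, went from 4.86 ± 0.312 TPM (SD, n = 3) to 9.78 ± 2.89 TPM (SD, n = 3), with a log2 change of 0.85 ± 0.22 (SE). Bub1b (BubR1) rose by 1.24, and Ttk, the Mps1 kinase that starts checkpoint signalling, by 0.83 from a mean near 0.397 TPM. Bub1, the checkpoint kinase that missed the filter, was at 0.790, 0.880 and 0.370 TPM with PBS and 2.29, 1.17 and 0.950 TPM after 6 instillations, with its lowest long-term value just above the highest PBS value.

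The chromosomal passenger complex corrects wrong attachments and later guides cytokinesis, and all 4 of its genes rose, against 9.51% of all tested genes. Birc5, its survivin subunit (chr11:117849237-117855743, plus strand), was at 4.89, 7.01 and 5.07 TPM with PBS, 13.3, 12.2 and 10.5 TPM after 1 instillation and 26.1, 18.9 and 14.0 TPM after 6. The short-term values fell between those of the other groups, and the lowest long-term library was only slightly above the highest short-term one (log2 change 1.61 ± 0.22 (SE), adjusted p = 0.00123). Incenp, the scaffold of the complex, was at 10.8, 9.23 and 10.9 TPM with PBS, 9.38, 11.8 and 10.4 TPM after 1 instillation and 19.0, 15.8 and 14.0 TPM after 6. Its rise was among the smallest of the 39 (log2 change 0.60 ± 0.16 (SE), adjusted p = 0.0335). Aurkb, the kinase, went from 2.22 ± 0.424 TPM (SD, n = 3) to 7.52 ± 2.03 TPM (SD, n = 3), and Cdca8 (borealin) from 3.21 ± 0.453 TPM (SD, n = 3) to 10.3 ± 2.55 TPM (SD, n = 3). Their log2 changes were 1.39 and 1.41.

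All 7 kinetochore and centromere genes rose after 6 instillations, against 9.51% of all tested genes. Cenpe and Cenpf among them passed the filter only through the long-term libraries. This role group held the largest rise and the largest fall after 1 instillation on deposited log2(TPM + 1) values, those of Spc24 and Cenpa. Cenpa, the histone H3 variant that marks centromeres (chr5:30666877-30674837, plus strand), was at 17.1, 14.6 and 15.7 TPM with PBS, 11.7, 9.68 and 10.8 TPM after 1 instillation and 27.1, 23.5 and 21.6 TPM after 6. Its mean TPM was the highest of the 41 genes with PBS but below those of Ube2c, Spc24, Birc5 and Pttg1 after 1 instillation, and it had the smallest rise of the 39 (log2 change 0.57 ± 0.14 (SE), adjusted p = 0.0255). After the length and GC correction its change of 0.34 did not pass, the only call of the 39 lost by that correction. Spc24, a subunit of the Ndc80 complex that grips microtubules (chr9:21755434-21760446, minus strand), was at 3.64, 2.79 and 4.79 TPM with PBS, 13.1, 12.3 and 13.0 TPM after 1 instillation and 12.6, 10.8 and 7.85 TPM after 6. Its long-term and short-term libraries overlapped, all above PBS (log2 change 1.27 ± 0.20 (SE), adjusted p = 0.00256). Its partner Spc25 went from 1.36 ± 0.300 TPM (SD, n = 3) to 5.45 ± 1.40 TPM (SD, n = 3), Nuf2 from 1.01 ± 0.341 TPM (SD, n = 3) to 3.74 ± 1.76 TPM (SD, n = 3), and Ndc80 from 0.943 ± 0.403 TPM (SD, n = 3) to 2.66 ± 1.18 TPM (SD, n = 3). Of these, Ndc80 had the smallest log2 change, 0.89 ± 0.25 (SE). Cenpe and Cenpf, a kinetochore motor and a large kinetochore protein, were under 0.6 TPM in all PBS libraries and between 1.12 and 2.32 TPM in the long-term libraries, with log2 changes of 0.85 and 0.87.

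The 6 spindle motors and microtubule proteins all rose, with a median of 1.05, against 9.51% of all tested genes. Tpx2, which activates Aurka and nucleates spindle microtubules, was at 2.5, 3.40 and 2.5 TPM with PBS, 3.02, 4.46 and 3.80 TPM after 1 instillation and 10.8, 6.90 and 6.77 TPM after 6 (log2 change 1.25 ± 0.20 (SE), adjusted p = 0.00295). Nusap1, which binds and bundles spindle microtubules, was at 1.81, 2.65 and 1.41 TPM with PBS, 1.46, 2.79 and 2.58 TPM after 1 instillation and 8.86, 5.08 and 4.46 TPM after 6 (log2 change 1.24 ± 0.26 (SE), adjusted p = 0.0111). In both, all long-term values exceeded all others. The largest change of the group was that of Kif2c, a microtubule-depolymerizing kinesin that corrects attachments, from 0.760 ± 0.0917 TPM (SD, n = 3) to 4.21 ± 1.17 TPM (SD, n = 3) (log2 change 1.55 ± 0.17 (SE)). Kif11, the motor that separates the spindle poles, rose by 0.85. Hmmr, which acts at spindle poles, rose by 0.77, and Kif4, a chromosome-bound kinesin with an annotated pseudogene (Kif4-ps), by 0.64.

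For the central spindle and cytokinesis, all 5 genes rose, against 9.51% of all tested genes. Their changes lay close together between 1.23 and 1.55. Prc1, which bundles the antiparallel microtubules of the central spindle, was at 2.69, 3.29 and 2.42 TPM with PBS, 2.46, 4.54 and 3.79 TPM after 1 instillation and 14.0, 9.10 and 7.96 TPM after 6 (log2 change 1.55 ± 0.23 (SE), adjusted p = 0.00187). Kif23 (MKLP1), a subunit of centralspindlin, was at 2.44, 3.15 and 2.85 TPM with PBS, 1.63, 3.51 and 2.47 TPM after 1 instillation and 11.8, 6.85 and 7.04 TPM after 6 (log2 change 1.29 ± 0.24 (SE), adjusted p = 0.00599). Both had their 3 highest values in the long-term libraries. Kif20a, a central spindle motor, went from 2.42 ± 0.142 TPM (SD, n = 3) to 8.62 ± 3.14 TPM (SD, n = 3). Ect2, which activates RhoA at the cleavage furrow, rose by 1.27, and Anln (anillin), a scaffold of the contractile ring, by 1.23.

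Top2a, the topoisomerase that untangles sister chromatids, was at 3.42, 3.71 and 2.80 TPM with PBS, 3.56, 7.92 and 4.77 TPM after 1 instillation and 14.0, 10.1 and 8.67 TPM after 6 (log2 change 1.45 ± 0.25 (SE), adjusted p = 0.00424). Mki67, which encodes the proliferation antigen Ki-67, was at 3.24, 3.91 and 3.22 TPM with PBS, 2.30, 4.31 and 3.42 TPM after 1 instillation and 14.2, 8.90 and 7.24 TPM after 6 (log2 change 1.27 ± 0.24 (SE), adjusted p = 0.00714). Both rose, and long-term replicate 1 was the highest library for each. That library held the highest value of its group in all 41 genes and the highest of all 9 libraries in 40, with Spc24 the exception. Without it, 28 of the 39 genes kept their call. The median log2 change was then 1.11.

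**Figure D4:**
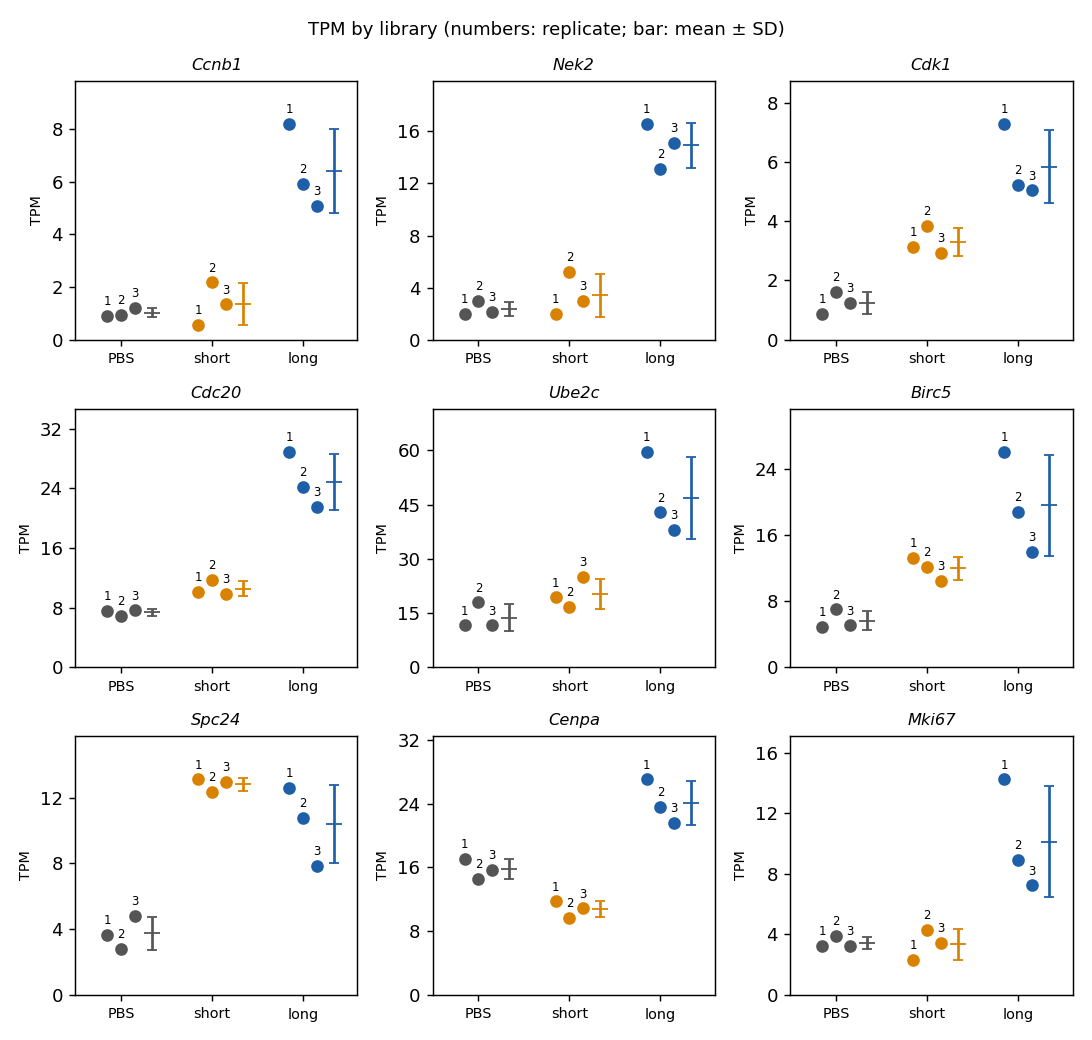
TPM by library for 9 genes of different roles. Numbers are replicates, and bars are the mean ± SD of 3 libraries. Ccnb1, Nek2, Ube2c and Mki67 had all long-term libraries above the other 6. In Cdk1, Cdc20 and Birc5 the short-term libraries lay between the PBS and long-term libraries on these deposited values. After the length and GC correction the difference between the exposures was -0.01 for Cdk1, 0.07 for Birc5 and 1.05 for Cdc20. Spc24 was at 12.4 to 13.1 TPM after 1 instillation, and Cenpa was below PBS after 1 instillation and above it after 6.

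After 1 instillation, 7 of the 39 tested genes rose and 1 fell on the values as deposited. Among all tested genes 11.7% rose and 40.3% fell. The 7 were Spc24, Cdk1, Plk1, Birc5, Spc25, Cdc20 and Aurkb, and the 1 was Cenpa. The median log2 change was 0.26 over the 39 genes, against -0.34 over all tested genes, a difference of 0.60. That median was 0.41 without short-term replicate 1 and 0.062 without short-term replicate 2. In 11 genes all 3 short-term libraries lay above all PBS libraries, against 14.5% of all tested genes. Spc24 changed most, from 3.74 ± 1.00 TPM (SD, n = 3) to 12.8 ± 0.404 TPM (SD, n = 3) (log2 change 1.56 ± 0.20 (SE), adjusted p = 0.0004). Birc5 rose to 12 ± 1.40 TPM (SD, n = 3) (log2 change 0.97 ± 0.22 (SE), adjusted p = 0.00547).

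Cdk1 was at 0.880, 1.62 and 1.23 TPM with PBS, 3.13, 3.84 and 2.94 TPM after 1 instillation and 7.28, 5.22 and 5.04 TPM after 6 (log2 change 0.95 ± 0.18 (SE), adjusted p = 0.00252). Plk1 was at 2.18, 2.19 and 2.55 TPM with PBS, 4.87, 4.48 and 4.25 TPM after 1 instillation and 11.0, 8.27 and 7.16 TPM after 6 (log2 change 0.74 ± 0.17 (SE), adjusted p = 0.00519). In both genes the short-term libraries lay between the PBS and the long-term libraries without overlap. Spc25 was at 1.03, 1.62 and 1.42 TPM with PBS, 1.85, 4.69 and 3.76 TPM after 1 instillation and 6.89, 4.09 and 5.38 TPM after 6 (log2 change 0.86 ± 0.26 (SE), adjusted p = 0.0184), with short-term replicate 1 only just above the highest PBS library. Cdc20 rose by 0.46 (adjusted p = 0.0263) and Aurkb by 0.57 (adjusted p = 0.0446), close to the threshold of 0.05. Cenpa fell in all 3 short-term libraries, to 10.8 ± 1.02 TPM (SD, n = 3) from 15.8 ± 1.23 TPM (SD, n = 3) (log2 change -0.52 ± 0.14 (SE), adjusted p = 0.0128). With PBS replicate 1 left out the count was 4 higher and 0 lower, since Spc25, Cdc20, Aurkb and Cenpa lost their calls. With short-term replicate 1 left out it was 12 higher.

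Over the 39 genes the change after 1 instillation ran against transcript length. The Spearman correlation across these genes was -0.51, and across 13792 tested genes with a known length it was -0.56. Genes are not independent replicates, and all share the same libraries. The 13 shortest of the 39 genes, with transcripts of 967 to 2201 bases, had a median log2 change of 0.48, and the 13 longest, of 3892 to 11130 bases, had one of -0.06. After the correction the medians were 0.43 and 0.75, and the correlation was 0.36 over the 39 genes and 0.02 over all. How much of the short-term changes of these genes goes with length for a technical reason was not tested.

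After the length and GC correction, 31 of the 39 genes were higher than PBS after 1 instillation and 1, Cenpa, was lower. Of all tested genes 23.8% were then higher and 26.1% lower. The corrected median was 0.66, against -0.02 over all tested genes, a difference of 0.67 where the deposited values gave 0.60. All 7 genes that rose as deposited were among the 31. The correction subtracts the same trend at every expression level, although log2(TPM + 1) understates the change of low genes. Whether it overcorrects long, low genes was not tested. With 2 other scalings the counts were 20 higher (median-ratio scaling) and 26 higher (quantile normalization), with none lower in either. Cenpa therefore lost its call under those 2 scalings, where its change was -0.19 and -0.11. The share of all tested genes called was not counted under these scalings, so the counts of 20 and 26 have no background beside them. The median over all tested genes was -0.05 with median-ratio scaling and -0.02 with quantile normalization, against 0.52 and 0.65 over the 39 genes.

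Of the 31 genes, 6 had a change below 0 before the correction. Their transcripts are 4086 to 11130 bases long, and their direction rests on the scaling. Mki67, with a transcript of 10061 bases, had short-term values of 2.30, 4.31 and 3.42 TPM against 3.24, 3.91 and 3.22 TPM with PBS, a log2 change of -0.06 as deposited and 0.90 after correction. Cenpf was at 0.430, 0.490 and 0.370 TPM with PBS, 0.240, 0.460 and 0.250 TPM after 1 instillation and 2.32, 1.53 and 1.12 TPM after 6, with changes of -0.12 and 0.86. Cenpe was at 0.400, 0.570 and 0.440 TPM with PBS, 0.230, 0.470 and 0.230 TPM after 1 instillation and 2.31, 1.42 and 1.33 TPM after 6, with changes of -0.17 and 0.75. In all 3 the deposited values of PBS and short-term libraries overlapped.

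Kif4 was at 1.03, 1.17 and 1.21 TPM with PBS, 0.460, 1.13 and 0.800 TPM after 1 instillation and 2.65, 2.32 and 2.06 TPM after 6, with a short-term log2 change of -0.27 as deposited and 0.43 corrected. Ect2 was at 1.22, 1.07 and 1.14 TPM with PBS, 0.330, 1.61 and 0.770 TPM after 1 instillation and 5.42, 3.37 and 3.87 TPM after 6, and its changes were -0.23 and 0.38. Hmmr, at 1.13, 1.18 and 1.09 TPM with PBS, 0.320, 1.09 and 0.750 TPM after 1 instillation and 3.47, 2.46 and 2.09 TPM after 6, had changes of -0.34 and 0.23, neither of which passed. Foxm1 was at 2.47, 4.59 and 3.79 TPM in the short-term libraries, with changes of -0.08 and 0.43. Short-term replicate 1, which deviated most with length, was the lowest of its group in 28 of the 41 genes, among them Mki67, Cenpf, Kif4, Ect2 and Foxm1. The corrected size also rests on which transcript is taken. For Cdk1 (4375 bases) and Birc5 (3334 bases) the annotation also lists coding transcripts of 1253 and 947 bases, and their corrected changes of 1.57 and 1.43 exceed the deposited 0.95 and 0.97.

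**Figure D5:**
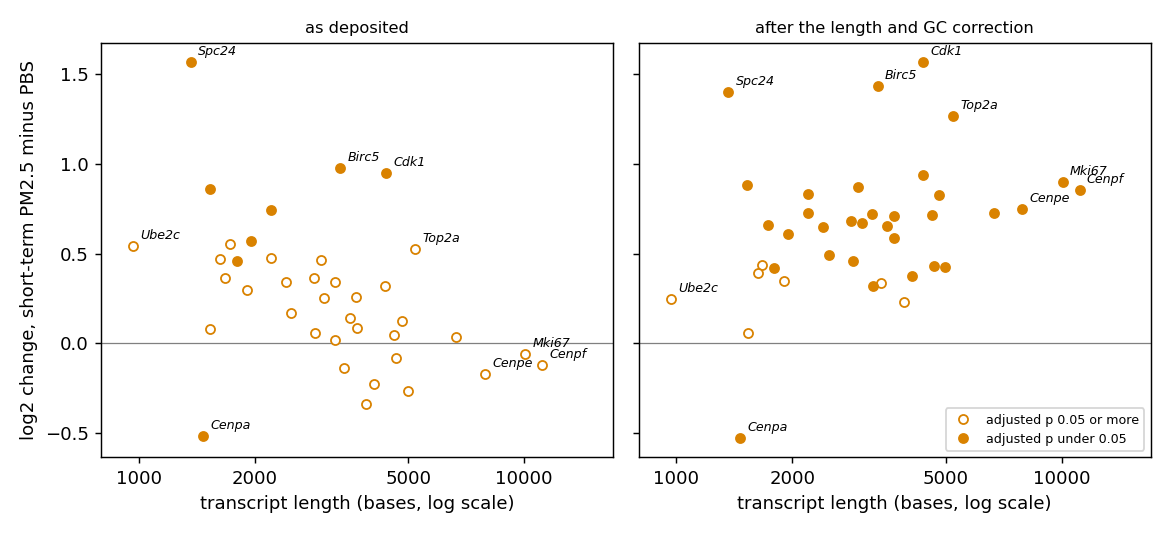
Log2 change after 1 instillation against PBS (vertical axis) by transcript length in bases (horizontal axis, log scale) for the 39 tested genes, as deposited and after the length and GC correction. Filled points are past the threshold of 0.05 on adjusted p. The 7 genes filled above 0 on the left remain filled on the right, where 31 are filled above 0, and Cenpa is below 0 in both.

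By role, on the deposited values 2 of 8 cyclins and kinases (Cdk1, Plk1), 1 of 7 checkpoint and anaphase genes (Cdc20), 2 of 4 passenger genes (Birc5, Aurkb) and 2 of 7 kinetochore genes (Spc24, Spc25) rose after 1 instillation. None of the 6 spindle genes, 5 cytokinesis genes or Top2a and Mki67 did so in limma, and 0 of these 13 had an unadjusted p under 0.05. After correction the counts were 6 of 8, 5 of 7, 3 of 4 and 6 of 7, with 5 of 6 spindle genes, 4 of 5 cytokinesis genes and both Top2a and Mki67. Of all tested genes 11.7% rose as deposited and 23.8% after correction. Differences between roles were not tested. Genes that did not pass in either form were Ccnb2, Aurka, Ube2c, Pttg1, Cdca8, Hmmr and Kif23. For Ccnb2 the change was 0.08 ± 0.19 (SE) as deposited and 0.06 ± 0.15 (SE) corrected.

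Comparing the exposures directly, 35 of the 39 genes were higher after 6 instillations than after 1, and none was lower. Among all tested genes 43.4% were higher and 7.08% lower, so the whole table was shifted the same way. The median log2 difference was 0.99 over the 39 genes and 0.41 over all tested genes. All 3 long-term libraries exceeded all short-term libraries in 36 of the 41 genes, 35 of them tested, against 50.2% of all tested genes. The 4 genes that did not pass were Spc24, Spc25, Mad2l1 and Ndc80. Cenpe, Cenpf and Ttk, among the 35, passed the filter only through the long-term libraries. With a filter on a mean of at least 1 TPM, which left them out, 32 of 36 genes were higher. After the correction 20 of the 39 were higher and none lower, against 19.2% and 22.2% of all tested genes, with a median of 0.45 against -0.03. The scalings move the median of all tested genes from 0.41 to 0.08 (median-ratio) and -0.01 (quantile).

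Nek2 had the largest difference between the exposures (log2 change 1.91 ± 0.25 (SE), adjusted p = 0.000449), followed by Ccnb1 (log2 change 1.68 ± 0.25 (SE), adjusted p = 0.000806) and Ccnb2 (log2 change 1.54 ± 0.19 (SE), adjusted p = 0.000363). Ect2 and Kif23, both of cytokinesis, came next as deposited, at 1.49 ± 0.23 (SE) and 1.43 ± 0.24 (SE), and stood at 0.81 and 0.85 after correction. All 5 cytokinesis genes and 6 of the 8 cyclins and kinases kept a difference that passed after correction. Of the 7 kinetochore genes only Cenpa did, at 0.87 ± 0.16 (SE). The share of all tested genes that were higher after correction was 19.2%. As deposited and under all 3 other scalings run (median-ratio, quantile, and length with GC), 15 genes were higher after 6 instillations than after 1. These were Ccnb1, Ccnb2, Nek2, Aurka, Cdc20, Ube2c, Pttg1, Cenpa, Kif2c, Hmmr, Kif20a, Kif23, Prc1, Ect2 and Anln.

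Mad2l1 and Ndc80, 2 of the 4 genes that did not pass, differed by 0.30 ± 0.22 (SE) and 0.41 ± 0.25 (SE) as deposited and by -0.03 ± 0.13 (SE) and -0.01 ± 0.19 (SE) corrected. Cdk1, which passed as deposited, differed by 0.66 ± 0.18 (SE) as deposited and by -0.01 ± 0.19 (SE) corrected. Kif11, which also passed, differed by 0.73 ± 0.21 (SE) and -0.02 ± 0.14 (SE). In these 4 genes the direction therefore rests on the scaling. Spc24 had a difference of -0.30 ± 0.20 (SE), which did not pass as deposited (adjusted p = 0.231) or at -0.37 ± 0.16 (SE) after correction, and it was lower after 6 instillations under median-ratio scaling and quantile normalization. Without long-term replicate 1, Cdk1, Birc5, Incenp, Nuf2, Kif11 and Top2a lost their calls and 29 genes were higher.

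The levels of the 41 genes among themselves kept much the same order in each group. The Spearman correlation of mean TPM over the 41 genes was 0.94 between long-term and PBS libraries and 0.92 between short-term and PBS libraries. Ube2c, Cenpa, Pttg1, Cdc20 and Birc5 together made up 37.3% of the summed TPM over all libraries. The median of the genes' mean TPM was 2.22 with PBS, 3.30 after 1 instillation and 7.52 after 6. All 41 together were 0.0124% to 0.0490% of a library. With PBS 7 genes had a mean under 1 TPM and after 6 instillations none did.

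Other genes of mitosis, from a list of 76 that includes condensins, further kinetochore genes and cyclin-dependent kinase regulators, also rose in part. Of 64 tested, 39 rose and none fell after 6 instillations, with a median log2 change of 0.80, and 14 rose and 4 fell after 1. Of all tested genes 9.51% rose and 1.72% fell after 6 instillations, and 11.7% rose and 40.3% fell after 1. The lowest p were those of Cenpm, a centromere protein (log2 change 1.74 ± 0.17 (SE), adjusted p = 0.00015), and Cdca3, a trigger of mitotic entry (log2 change 1.71 ± 0.17 (SE), adjusted p = 0.00017). Both also rose after 1 instillation, by 1.91 and 0.87. Pkmyt1, a kinase that holds Cdk1 inactive, was the 1 gene of the list that was lower after 6 instillations than after 1 (log2 change -0.53 ± 0.13 (SE), adjusted p = 0.01). The 16 subunits and partners of the anaphase-promoting complex, on which Cdc20 and Ube2c act, had no call after 6 instillations, and 2 rose and 4 fell after 1, near or below the shares of all tested genes. At an unadjusted p under 0.05, 1 of the 16 was counted in limma after 6 instillations.

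Genes of DNA replication and S phase followed another order. Of 38 tested, 14 rose after 6 instillations and 25 after 1, none fell in either, and 8 were lower and 1 (Dbf4) higher after 6 than after 1. Of all tested genes 9.51% rose after 6 instillations and 11.7% after 1. Between the exposures 7.08% of them were lower after 6 and 43.4% higher. After correction the counts were 20, 34 and 32 lower with 1 higher, against 13.1%, 23.8%, 22.2% and 19.2% of all tested genes. Mcm5, a subunit of the replicative helicase, stood at 7.14, 7.25 and 7.49 TPM with PBS, 23.3, 24.8 and 19.9 TPM after 1 instillation and 13.8, 11.5 and 11.0 TPM after 6. Its log2 change against PBS was 1.51 ± 0.14 (SE) after 1 instillation (adjusted p = 8.98e-05) and 0.65 ± 0.14 (SE) after 6 (adjusted p = 0.015). Uhrf1, which maintains DNA methylation at replication, stood at 2.05, 2.31 and 1.73 TPM with PBS, 8.94, 13.8 and 10.7 TPM after 1 instillation and 8.90, 6.22 and 5.90 TPM after 6. Its change was 1.99 ± 0.20 (SE) after 1 instillation (adjusted p = 0.00012) and 1.39 ± 0.20 (SE) after 6 (adjusted p = 0.00145). In both, every short-term library was above every long-term library. The summed TPM of all 38 was 306, 307 and 301 with PBS, 434, 640 and 487 after 1 instillation and 500, 396 and 385 after 6.

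The ratio of summed mitotic to summed S phase transcripts, which are read from the same library, was 0.427 ± 0.0246 with PBS, 0.341 ± 0.0288 after 1 instillation and 0.886 ± 0.0855 after 6 (SD, n = 3). The single values were 0.405, 0.454 and 0.423 with PBS, 0.350, 0.308 and 0.363 after 1 instillation and 0.980, 0.868 and 0.812 after 6. No group overlapped another in this ratio. The ratio was taken on the values as deposited, and the length trend of the short-term libraries need not cancel between the lists. An exact test of 3 against 3 libraries cannot go below p = 0.1, and none is given.

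Among 21 genes that control mitotic transcription, 3 rose after 6 instillations and none fell, against 9.51% and 1.72% of all tested genes. These were E2f7 and E2f8, repressors of E2F targets, and Mybl2, which encodes B-Myb. E2f7 was at 0.510, 0.710 and 0.520 TPM with PBS, 0.290, 0.630 and 0.560 TPM after 1 instillation and 2.94, 2.24 and 2.77 TPM after 6 (log2 change 1.21 ± 0.14 (SE), adjusted p = 0.000422), with all long-term libraries above 2 TPM and all others below 1. Mybl2 was at 1.10, 1.36 and 1.36 TPM with PBS, 2.76, 3.23 and 2.80 TPM after 1 instillation and 3.52, 2.57 and 3.48 TPM after 6 (log2 change 0.88 ± 0.14 (SE), adjusted p = 0.00309), and it also rose after 1 instillation (log2 change 0.79 ± 0.14 (SE), adjusted p = 0.00201). After 1 instillation 2 of the 21 rose and 6 fell, neither above the shares of all tested genes (11.7% and 40.3%). Of 15 CDK inhibitors and G1 cyclins none passed after 6 instillations, where 1 had an unadjusted p under 0.05 in limma, and 4 rose and 4 fell after 1, with the falls below the share of all tested genes. Cdkn1a (p21) rose after 1 instillation (log2 change 0.96 ± 0.20 (SE), adjusted p = 0.00332) and Cdkn1b (p27) fell (log2 change -1.07 ± 0.22 (SE), adjusted p = 0.00354).

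Markers of cell types moved in the same libraries, and their part in the mitotic changes was not tested. For comparison, 9.51% of all tested genes rose after 6 instillations and 1.72% fell. Of 12 alveolar macrophage markers 8 rose after 6 instillations, with summed levels of 883 to 1146 TPM with PBS, 650 to 918 TPM after 1 instillation and 1919 to 2101 TPM after 6. Of 11 markers of monocyte-derived and interstitial macrophages 8 rose, with sums of 303 to 363 TPM, 599 to 634 TPM and 848 to 1185 TPM in the same order. All 10 markers of ciliated cells and their precursors rose, with sums of 160 to 170 TPM, 131 to 150 TPM and 468 to 571 TPM. Cells that form many cilia are known to reuse part of the mitotic program without dividing. Mcidas, a switch for that fate, was at 0.510, 0.620 and 0.320 TPM with PBS, 0.450, 0.510 and 0.610 TPM after 1 instillation and 12.3, 10.5 and 12.2 TPM after 6 (log2 change 3.10 ± 0.14 (SE), adjusted p = 1.17e-06). The long-term libraries were set apart, and the log2 change after 1 instillation, 0.04 ± 0.14 (SE), did not pass. Of 6 tested airway secretory and basal markers 4 rose after 6 instillations, with sums over all 9 listed of 145956 to 182339 TPM, 108321 to 129560 TPM and 155203 to 179132 TPM.

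Neutrophil markers had another pattern, with 8 of 8 higher after 1 instillation and none after 6 (1 at an unadjusted p under 0.05 in limma), and sums of 353 to 557 TPM with PBS, 974 to 1499 TPM after 1 instillation and 347 to 573 TPM after 6. Endothelial markers were lower in 5 of 7 genes after 6 instillations and in 4 of 7 after 1, with sums of 3954 to 4276 TPM with PBS, 2701 to 3009 TPM after 6 and 3070 to 3529 TPM after 1. Among all tested genes 11.7% were higher and 40.3% lower after 1 instillation, and 9.51% and 1.72% after 6. Alveolar type 2 cell markers had no limma call after 6 instillations among 8, T and NK cell markers none among 8 (1 in each at an unadjusted p under 0.05), and B cell and germinal centre markers 1 (Fcer2a) among 8. Long-term replicate 1, the highest library for the mitotic genes, was 1.48 times the mean of the other long-term libraries in the neutrophil sum. The ratio was 1.40 for B cells, 1.34 for T and NK cells and 1.27 for monocyte-derived and interstitial macrophages. It was 1.24 for the granulocyte list, 1.11 for the thymus list and 1.28 for the S phase genes. In the remaining marker lists it was 0.848 (erythroid) to 0.975 (fibroblast and smooth muscle), with 0.922 for ciliated cells and 0.969 for alveolar macrophages.

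Early markers of precursors that divide rapidly outside the lung were mostly low, and later genes raised the sums of the granulocyte and erythroid lists. Of the early granulocyte genes, Mpo was at most 1.51 TPM and Elane at most 1.09 TPM in any library, with the highest value of each in PBS replicate 3. Ltf, a late granule gene that airway cells also express, was the 1 called gene of that list (log2 change 3.21 ± 0.39 (SE), adjusted p = 0.000577). The 8 genes of that list summed to 24.2 to 62.0 TPM with PBS, 45.3 to 68.2 TPM after 1 instillation and 148 to 235 TPM after 6, where Ltf made up 213, 141 and 217 TPM. The thymocyte genes Rag1 and Dntt did not exceed 0.08 and 0.46 TPM, and the erythroid gene Klf1 did not exceed 1.82 TPM. The erythroid list of 8 summed to 100 to 150 TPM with PBS, 82.4 to 134 TPM after 1 instillation and 55.4 to 68.5 TPM after 6, most of it Alas2, a heme synthesis gene of maturing red cells, at 88.6, 136 and 89.4 TPM with PBS, 72.2, 63.7 and 117 TPM after 1 instillation and 37.4, 51.2 and 54.0 TPM after 6. Alas2 fell after 6 instillations (log2 change -1.11 ± 0.25 (SE), adjusted p = 0.0154). Fibroblast and smooth muscle markers had 1 gene higher (Col1a1) and 2 lower of 7 after 6 instillations, against 9.51% and 1.72% of all tested genes.

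Exons of some of the 41 genes overlap those of other genes in the annotation, and the labels do not say whether the authors' counting used strand. On the opposite strand this holds for Ube2c with Tnnc2, Cdc20 with Elovl1, Kif20a with Cdc23, Nusap1 with Oip5, Ccna2 with Exosc9, Prc1 with Rccd1, Kif4 with Pdzd11, and for Cdc25c, Cdca8, Plk1 and Nek2 with predicted or RIKEN genes. On the same strand it holds for Foxm1 with Tex52 and for Top2a with a small nucleolar RNA gene. Reads of the opposite-strand pairs cannot be told apart without strand, and strand does not separate the same-strand pairs.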

How the data were processed

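Poly(A) RNA of whole lung was made into libraries that went through DSN processing before sequencing on DNBSEQ, per the labels' protocols. The authors deposited 1 table of TPM for 9 libraries and 18875 genes. HISAT2, Bowtie2, RSEM and DESeq2 are named without role or version, per the submitters' processing notes, and the build GRCm38.p6 for 8 of 9 samples. Column sums differ by at most 1.09 TPM, so read depth is unknown, and counting intervals could not be had. DSN acts on abundant transcripts, to an extent that TPM do not show. No column of the table was left unused.

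The 41 genes, the other gene lists, the rules and the alternatives were chosen with earlier results of these data known. The 13991 genes that reached 1 TPM in 3 libraries or more were fitted as log2(TPM + 1) in limma 3.58.1 (R 4.3.3). All 3 groups entered 1 fit with 6 residual degrees of freedom and eBayes with an intensity trend. Two-sided p-values were adjusted by Benjamini and Hochberg's method over the 13991 genes, and 0.05 was the threshold. A fold change is the difference of group means on that scale, which understates the change of low genes. PBS libraries are shared by both comparisons against PBS. The code was tested on simulated data.

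The length and GC correction subtracts from each library natural splines in transcript length and GC content, with 5 degrees of freedom each. Length is that of the longest transcript linked to RefSeq in the annotation (GENCODE M21), and 199 tested genes without one were left out, none of them among the 41. Other alternatives were log2(TPM + 0.1), no filter, a mean of at least 1 TPM, median-ratio scaling, quantile normalization, a fit of only the 2 groups compared, a replicate block, no trend, robust eBayes and leaving out each library. No pairing of the libraries by replicate number was seen.

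All 41 genes are named. Values of every library are given for the 2 genes of each role with the highest mean TPM over the 9 libraries, for the 5 largest changes in each direction among genes past the threshold in each comparison, and for genes past the threshold in the other direction after correction. Bub1 and Cdc25c were added because they missed the filter, and Hmmr, E2f7, Mcidas, Mcm5, Uhrf1, Mybl2 and single marker genes were picked with their values known. Other lists are given by counts with genes of small p, and further genes of them were named after their values were seen. Apart from the S phase counts, these lists are given as deposited, without the length and GC correction. Trac, a T cell marker, was not matched in the table. Promoters are from RefSeq (GRCm38.p6) and were matched by gene ID. Python 3.11.15 was used for annotation, counts and figures.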

Additional observations from a re-analysis of the deposited data

How the results depend on the processing

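Against PBS after 6 instillations, 26 to 39 of the 39 tested genes were higher when single libraries were left out (26 without PBS replicate 1), and none was lower under any alternative. The median log2 change was 1.66 with a pseudocount of 0.1. After 1 instillation, 7 genes were higher as deposited, 20 with median-ratio scaling, 26 with quantile normalization and 31 with the length and GC correction, and 4 (without PBS replicate 1) to 12 (without short-term replicate 1) when single libraries were left out. The count lower, 1 as deposited, was 0 with median-ratio scaling and 0 with quantile normalization, and 0 (without PBS replicate 1) to 4 (without short-term replicate 2) when single libraries were left out. The median was 0.65 with quantile normalization and 0.66 with the correction. Shares of all tested genes were not counted under median-ratio scaling, quantile normalization or with a library left out. Those counts therefore have no background beside them.

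Between the exposures, 19 genes were higher with quantile normalization and 20 with the correction instead of 35, and 1 (Spc24) was lower with median-ratio scaling and 1 (Spc24) with quantile normalization. The median of 0.99 became 0.41 with quantile normalization and 0.45 with the correction. Genes whose direction turned with the correction, one side past the threshold, were Cenpe (0.75), Cenpf (0.86), Kif4 (0.43), Mki67 (0.90), Ect2 (0.38) and Foxm1 (0.43) after 1 instillation, and Cdk1 (-0.014) and Kif11 (-0.022) between the exposures. The cause was not tested.

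Median-ratio scaling and quantile normalization (over 39 genes) moved the summed TPM to 113 and 114 in PBS replicate 1, to 116 and 117 in PBS replicate 3, to 221 and 254 in short-term replicate 1 and to 201 and 216 in short-term replicate 3.

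With the replicate block, 30 genes were higher after 6 instillations, and Mad2l1, Espl1, Incenp, Cenpa, Ndc80, Kif11, Kif4, Hmmr and Foxm1 lost their call. After 1 instillation Cdc20 and Aurkb lost theirs under the block, and between the exposures no gene did. Deviations of same-numbered libraries had correlations of -0.286 to 0.262, with 1 of 9 above 0.1, so no pairing by number was seen. With 3 libraries a group, this check cannot exclude a shared batch.

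Depth is unknown from TPM, and for genes near 1 TPM, such as Cenpe, Cenpf, Ttk, Bub1 and Cdc25c, counting error could not be set beside the spread between libraries. With 3 libraries a group, leaving out 1 leaves few degrees of freedom.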
